A study of Mus musculus with 32 samples.

Results

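The genes described here are 36 genes of T lymphocytes and natural killer (NK) cells, read across 32 primary melanomas of the mouse. They were listed by name for their known functions. The rule uses no measured value, but the list was chosen with earlier results of these data known. All 36 were found by symbol among the 50600 genes of the deposited tables. The tumours formed 4 groups of 8, in males and in females of each of 2 genotypes. Ecad tumours carried the genotype label Tyr::NrasQ61K;Cdkn2a-/+;°/°;Cdh1F/F, an activated Nras transgene expressed from the tyrosinase promoter, loss of 1 copy of the tumour suppressor Cdkn2a and floxed Cdh1, which encodes E-cadherin of cell junctions and was left intact. ΔEcad tumours carried the label Tyr::NrasQ61K;Cdkn2a-/+;Tyr::NRAS/°;Cdh1F/F. In the study's description the corresponding element was a Cre recombinase under the tyrosinase promoter, which removes E-cadherin in melanocytes. The Nras transgene and the Cdkn2a loss were thus shared by all 4 groups, and ages were not given. The tyrosinase promoter acts in the melanocytic lineage, so the lymphocytes of these tumours were not the intended site of the deletion.

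T cells recognise antigen through a receptor whose variable chains sit in the membrane together with the CD3 and zeta chains, and the coreceptors CD4 and CD8 divide them into helper and cytotoxic classes. NK cells lack this receptor and read activating and inhibitory receptors instead, and both cell types kill by releasing perforin and granzymes. In melanoma, cytotoxic T cells are the best known lymphocyte of the tumour, and regulatory T cells, which express Foxp3, restrain them.

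The libraries held 24036333 to 63923086 counts per tumour, with a median of 34684497. Levels are given as TPM (transcript abundance scaled so that each tumour sums to 1000000), which are corrected for gene length and can be set side by side between genes. Several libraries stood apart. The library labelled ΔEcad male 2 had sex-linked transcripts that went against its label. ΔEcad male 7 had almost none of the RNA of melanocytic cells (31.0 TPM summed over 6 markers, against a median of 26657 over all tumours) and the highest mast cell sum (1749 TPM). ΔEcad female 3 had hardly any RNA of blood vessels or macrophages (0.48 and 11.7 TPM). Markers of immature thymocytes summed to at most 0.74 TPM in any tumour. Cd3e, Cd3d, Cd3g and Trac, the T cell markers, summed to between 0.33 and 56.4 TPM. The NK cell markers Ncr1, Klrb1c and Eomes summed to between 0.18 and 26.6 TPM. The highest of these sums, in Ecad female 2, was nearly all Klrb1c (26.2 TPM), and Ncr1 had 3 counts or fewer in 14 of the 32 tumours.

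The genes of the CD3 chains lie side by side on chromosome 9, and their promoters are shown because Cd3g, Cd247 and Cd3d had the highest Pearson r with Cd3e of all members. Beside them stand the promoters of Gzmb, which had the largest fitted difference of any member between groups, and of Klrb1c, the member least related to Cd3e. Each window runs 5′ to 3′ from 250 bases before to 50 bases after the annotated start (RefSeq, GRCm38.p6), and 24 of the 36 members had an entry, with 29 windows in all. Capitals mark the letters of 5 motifs, searched on both strands: TGTGGT (the core bound by RUNX factors), AGGAAG (ETS factors), CAGCTG (an E-box), GGTGTGA (T-box factors such as T-bet and Eomes) and TATAAA (the TATA box).
Cd3g (chr9:44980382-44980681, minus strand): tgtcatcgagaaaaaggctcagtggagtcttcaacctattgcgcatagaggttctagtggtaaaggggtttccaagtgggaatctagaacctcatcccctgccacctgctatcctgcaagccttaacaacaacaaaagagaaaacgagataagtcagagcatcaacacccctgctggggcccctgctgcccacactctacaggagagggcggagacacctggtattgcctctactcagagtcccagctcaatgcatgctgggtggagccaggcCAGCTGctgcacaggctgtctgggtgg
Cd3d (chr9:44981536-44981835, plus strand): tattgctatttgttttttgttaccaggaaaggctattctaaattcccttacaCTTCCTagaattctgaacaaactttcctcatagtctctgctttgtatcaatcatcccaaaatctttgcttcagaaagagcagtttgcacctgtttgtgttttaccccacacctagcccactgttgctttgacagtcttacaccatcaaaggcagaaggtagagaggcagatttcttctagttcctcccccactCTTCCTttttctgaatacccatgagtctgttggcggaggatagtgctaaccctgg
Cd3e (chr9:45009562-45009861, minus strand): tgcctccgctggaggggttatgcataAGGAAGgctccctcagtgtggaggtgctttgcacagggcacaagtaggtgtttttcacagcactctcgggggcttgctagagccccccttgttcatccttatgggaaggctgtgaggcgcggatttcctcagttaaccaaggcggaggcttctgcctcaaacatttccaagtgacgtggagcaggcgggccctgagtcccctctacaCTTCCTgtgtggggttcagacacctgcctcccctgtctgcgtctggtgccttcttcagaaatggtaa
Gzmb (chr14:56262285-56262584, minus strand): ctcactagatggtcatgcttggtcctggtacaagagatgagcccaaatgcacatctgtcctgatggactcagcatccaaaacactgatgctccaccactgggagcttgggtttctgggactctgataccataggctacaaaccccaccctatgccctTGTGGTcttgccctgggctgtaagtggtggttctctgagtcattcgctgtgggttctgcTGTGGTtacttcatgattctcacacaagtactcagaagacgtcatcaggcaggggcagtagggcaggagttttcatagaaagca
Klrb1c (chr6:128788592-128788891, minus strand): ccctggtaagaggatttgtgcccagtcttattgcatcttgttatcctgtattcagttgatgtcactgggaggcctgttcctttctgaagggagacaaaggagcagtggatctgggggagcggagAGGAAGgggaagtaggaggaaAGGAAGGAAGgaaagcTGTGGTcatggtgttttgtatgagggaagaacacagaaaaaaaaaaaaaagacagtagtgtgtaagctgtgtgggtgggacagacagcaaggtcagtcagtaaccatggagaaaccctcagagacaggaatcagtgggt
The ETS letters stood in the windows of Cd3d and Cd3e, at 2 places in each, and at 3 places in that of Klrb1c, where a pair overlapped. The window of Cd3g held the E-box alone, 23 bases after the start. The RUNX letters occurred in the windows of Gzmb, 93 and 34 bases before the start, and of Klrb1c, 89 bases before it. Over all 29 member windows the RUNX letters were found in 11 (37.9%), against 16.8% of the 32851 promoters in the table, and the ETS letters in 16 (55.2%), against 35.4%. The E-box was found in 6 windows (20.7%, against 16.3%), and the T-box and TATA letters in 2 each (6.90%, against 3.98% and 13.6%). These are matches of letters and not measured sites.

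The sum of the 36 members differed far more between tumours than between groups. It was highest in Ecad male 4 (396 TPM), ΔEcad male 4 (302 TPM) and Ecad male 6 (293 TPM), and lowest in Ecad female 3 (3.49 TPM) and Ecad female 8 (4.12 TPM). The median was 76.4 TPM. In ΔEcad female 3, 24 of the 36 members had no count, and 13 had none in Ecad female 8. At the other end, 32 members exceeded 1 TPM in ΔEcad male 4. The 5 highest tumours were all male and the 4 lowest all female, while each group held tumours above and below the median. In bulk tumour RNA, fewer lymphocytes and less RNA in each lymphocyte cannot be told apart.

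**Figure D1:**
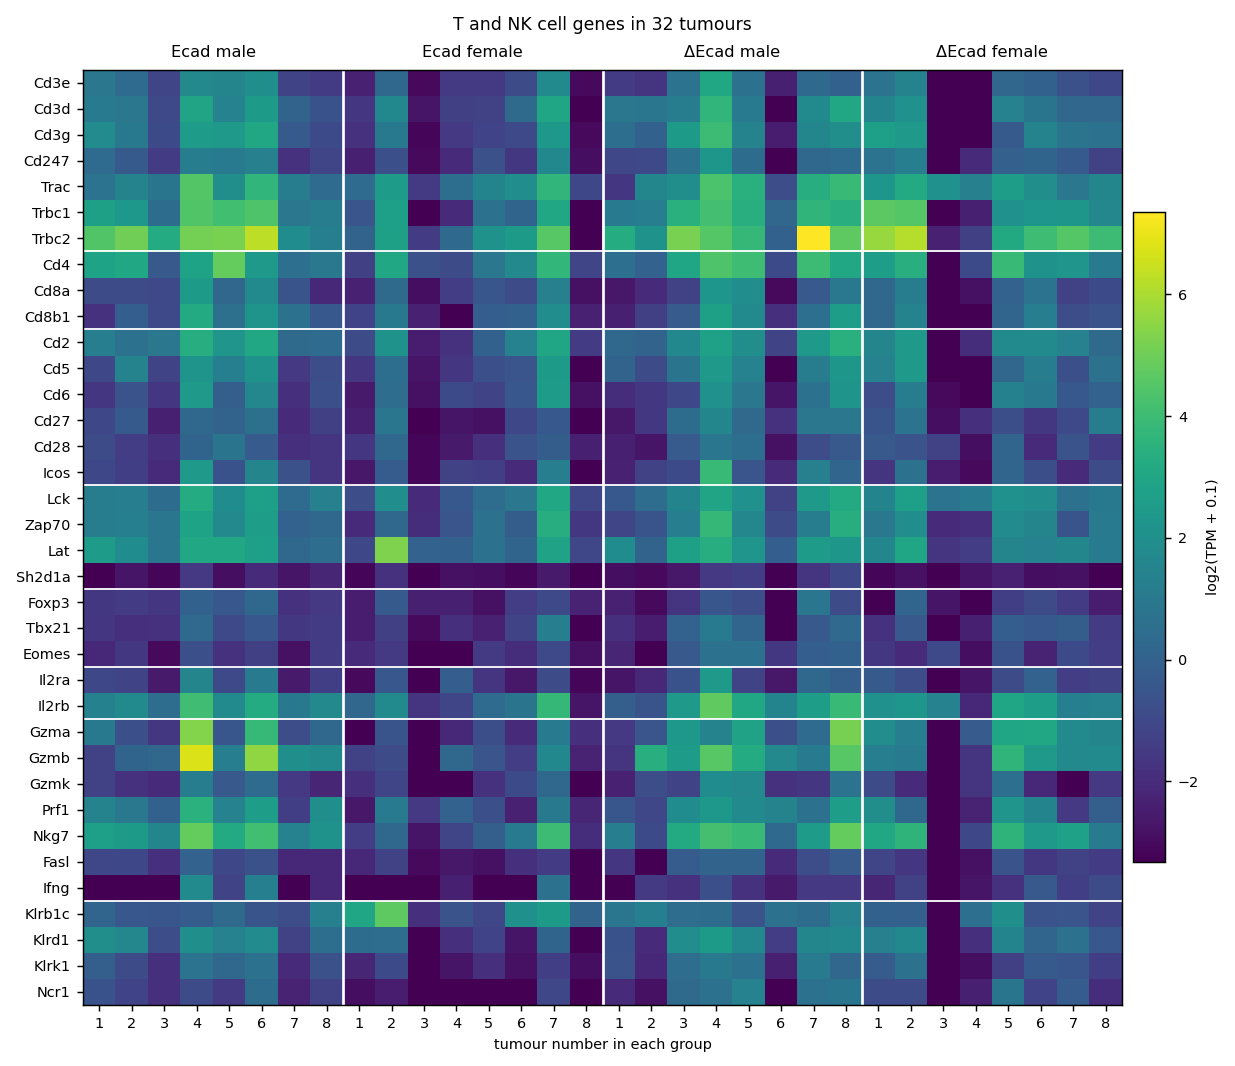
Level of each of the 36 members (rows, ordered by role and divided by white lines) in each of the 32 tumours (columns, 8 per group), as log2(TPM + 0.1) on a colour scale. Whole columns are bright or dark: Ecad male 4 and 6, ΔEcad male 4 and Ecad female 7 are high for most members, and Ecad female 3 and 8 and ΔEcad female 3 are low.

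Cd3e, the signalling chain shared by all T cell receptors, was present in 30 of 32 tumours, with a median of 0.705 TPM. It lay between 0.26 and 3.86 TPM in Ecad males (median 1.51) and between 0.02 and 3.37 TPM in Ecad females (median 0.25). The range was 0.09 to 7.98 TPM for ΔEcad males (median 1.01) and 0 to 2.63 TPM for ΔEcad females (median 0.705). The 4 ranges overlapped over most of their length, and a single tumour, ΔEcad male 4, set the top. Cd3d and Cd3g, the partners of Cd3e, had medians of 1.74 and 1.54 TPM and the same highest tumour (12.7 and 15.9 TPM), as did the zeta chain Cd247 (0.62 and 4.89 TPM). Cd3d had no count in ΔEcad male 6, where the other 7 ΔEcad males lay between 1.70 and 12.7 TPM.

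The constant regions of the receptor were among the more abundant members. Trac, of the alpha chain, ranged from 0.22 to 22.4 TPM (median 3.28) and was counted in every tumour, including ΔEcad female 3, which had no count of Cd3e. In ΔEcad females 3 and 4 the T cell marker sum was Trac alone (4.06 and 2.42 TPM), with Trbc1 and Trbc2 at 3 counts or fewer. The source of the Trac RNA in these tumours was not tested. Trbc2, of the beta chain, had the highest median of all members, 11.6 TPM, and Trbc1 a median of 4.42 TPM, close to those of Cd4 and Nkg7. Trbc1 and Trbc2 are nearly identical, so the division of reads between them is uncertain. In ΔEcad male 7, Trbc2 reached 162 TPM (1449 counts) with Trbc1 at 12.4 TPM, a ratio of 13.1, whereas Cd3e was at 1.14 TPM. Among the tumours with more than 3 counts of Trbc1, the next highest ratio was 7.41, in Ecad male 3. The 35 Trbv variable segments summed to only 36 counts in ΔEcad male 7, while Ecad male 5 had 656 Trbv counts, above its counts of Trbc1 (165) and Trbc2 (325) together.

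ΔEcad male 4 also held the RNA of another kind of T cell. The delta constant region Trdc was at 25.3 TPM there (900 counts), against a median of 1.81 TPM over the tumours and 7.47 TPM in the next highest. The segments Trdv4 (64.8 TPM, 265 counts) and Tcrg-V6 (25.1 TPM, 98 counts), used by a gamma delta T cell subset of skin and mucosa, were likewise highest in that tumour, and so was the cytokine gene Il17a (45.2 TPM, against a median of 0.135). In the same tumour Icos, a costimulatory receptor, reached 14.5 TPM where the second highest value was 5.36.

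Among the coreceptors Cd4 was the more abundant. It lay between 0 and 28.3 TPM (median 4.46), with medians of 6.19 TPM (Ecad males), 1.14 TPM (Ecad females), 8.04 TPM (ΔEcad males) and 4.46 TPM (ΔEcad females). Cd8a lay between 0 and 5.49 TPM (median 0.455), with group medians of 0.52, 0.37, 0.50 and 0.675 in the same order. Cd4 was above Cd8a in 31 of 32 tumours, and in the other, ΔEcad female 3, both were at 0. Cd4 is also expressed by some macrophages and dendritic cells of other tissues, and the 6 macrophage markers summed to between 11.7 and 2740 TPM here; the share of Cd4 RNA that came from T cells was not tested. Cd8b1, the beta chain, was like Cd8a highest in Ecad male 4 (9.19 TPM).

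The adhesion and costimulation genes Cd2, Cd5, Cd6, Cd27, Cd28 and Icos had medians between 0.365 and 2.40 TPM. Cd2, an adhesion receptor, was the highest of them and Icos the lowest. The receptor-proximal kinases lay within that range: Lck had a median of 2.18 TPM (0.15 to 9.30) and was counted in every tumour, and Zap70 a median of 1.79 TPM (0.14 to 13.8). Lat, the adaptor that both kinases feed, had a median of 2.81 TPM, and its level of 38.3 TPM in Ecad female 2 stood apart from a second highest value of 9.96. Sh2d1a, an adaptor of the SLAM receptors, was the lowest member, with a median of 0.04 TPM and no count in 6 tumours.

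Of the lineage factors, Foxp3 ranged from 0 to 1.71 TPM. Its medians were 0.25 TPM (Ecad males), 0.10 TPM (Ecad females), 0.33 TPM (ΔEcad males) and 0.17 TPM (ΔEcad females), and its ranges overlapped in all 4 groups. Tbx21, which directs the type 1 programme, reached 2.33 TPM in Ecad female 7, where the other Ecad females lay at 0.35 TPM or below. Eomes, its relative in cytotoxic cells, had medians of 0.74 TPM in ΔEcad males and 0.21 TPM in Ecad males, 0.255 in ΔEcad females and 0.155 in Ecad females. Of the interleukin-2 receptor chains, Il2rb (median 2.90 TPM) was well above Il2ra (0.355 TPM), the chain of regulatory and activated cells.

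The cytotoxic effectors differed by orders of magnitude between tumours. Gzmb, a granzyme that triggers death of the target cell, lay between 0.32 and 110 TPM in Ecad males (median 2.81), and between 0 and 3.06 TPM in Ecad females (median 0.385). In ΔEcad males it lay between 0.20 and 23.7 TPM (median 7.66) and in ΔEcad females between 0 and 12.4 TPM (median 2.68). Only Ecad male 4 (110 TPM) and Ecad male 6 (46.9 TPM) exceeded the highest ΔEcad tumour, and all groups overlapped at low values. Prf1, the pore-forming protein perforin, had medians of 2.62 TPM (Ecad males), 0.37 TPM (Ecad females), 2.99 TPM (ΔEcad males) and 0.965 TPM (ΔEcad females). Its highest value was again in Ecad male 4, at 11.1 TPM. Ifng, the cytokine interferon gamma, was barely above detection, with no count in 12 of 32 tumours and a highest level of 3.20 TPM, in Ecad male 4. It was at 0 in 6 of 8 Ecad females, and in Ecad female 7 it reached 1.48 TPM.

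Of the NK cell receptors, Ncr1, the activating receptor NKp46, was at 0 counts in 5 of 8 Ecad females, and its highest value in that group was 0.38 TPM. It lay between 0.11 and 1.28 TPM in Ecad males (median 0.33). In ΔEcad males it lay between 0 and 2.58 TPM (median 1.32), and in ΔEcad females between 0 and 1.65 TPM (median 0.40). Klrb1c, the NK1.1 antigen of C57BL/6 mice, had its 4 highest values all in Ecad females: 26.2 TPM in number 2, 7.79 in number 1, 5.46 in number 7 and 4.01 in number 6. Outside that group no tumour exceeded 3.83 TPM. The B cell markers of Ecad female 2 summed to 68.1 TPM, the highest of all tumours, but those of Ecad female 1 to only 1.65 TPM. The part of the B cells in the Klrb1c level was not tested.

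**Figure D2:**
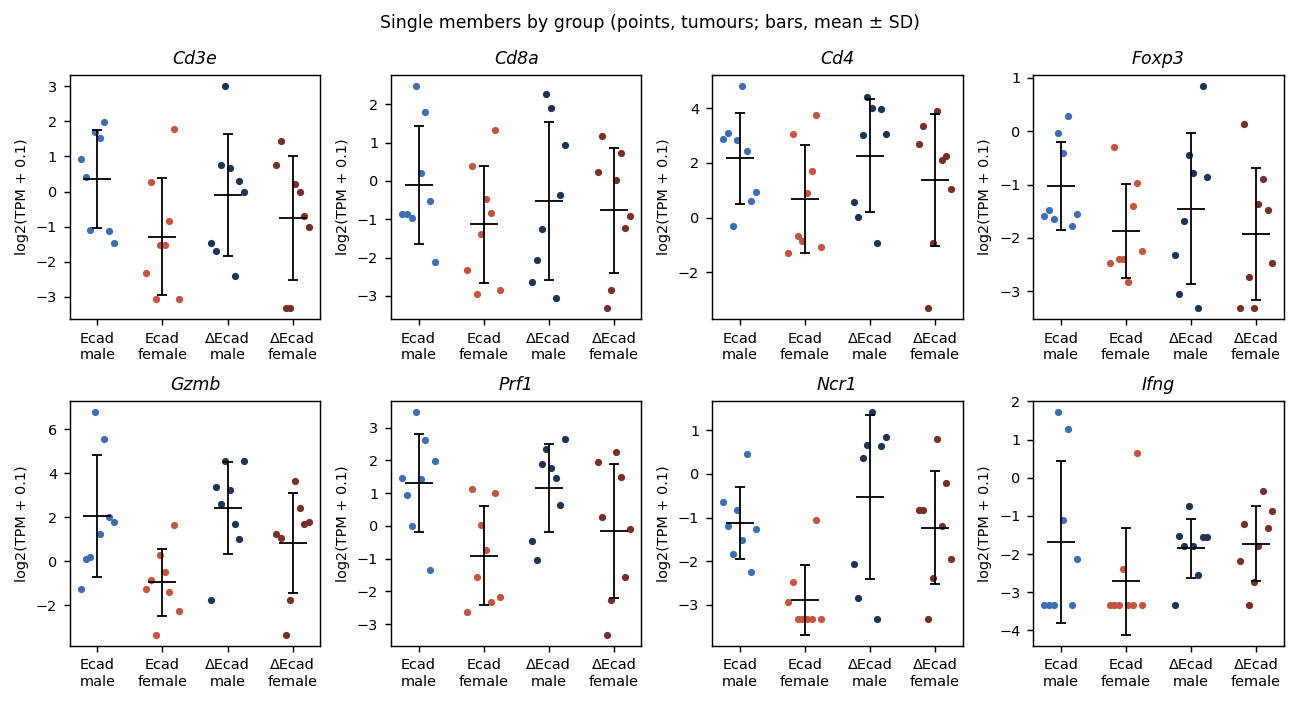
Levels of 8 members as log2(TPM + 0.1) in the 4 groups, with each tumour as a point and the mean ± SD as bars (n = 8 per group). The ranges overlap between groups for every gene shown, and most Ecad females lie at the lowest level of Ncr1.

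The first question was whether loss of E-cadherin in the tumour cells changed these genes. In females, the median of Ncr1 was 0.40 TPM in ΔEcad against 0 TPM in Ecad tumours, that of Gzma 3.07 against 0.16 TPM and that of Gzmb 2.68 against 0.385 TPM. Klrb1c had the other order, 0.735 against 2.48 TPM, and Gzmk hardly differed, 0.175 against 0.185 TPM. None of the 34 members that passed the filter on low counts was called by edgeR's quasi-likelihood test. A call needed a log2 fold change beyond 1 in size with p under 0.05 after Benjamini-Hochberg adjustment over all genes, a rule that called 1.16% of the 17717 genes tested as higher and 0.0452% as lower. The smallest adjusted p-values in edgeR were those of Ncr1 (log2 fold change 2.95 ± 0.98 SE, adjusted p = 0.0975), Klrb1c, which was lower (-2.17 ± 0.83, adjusted p = 0.164), and Gzma (3.00 ± 1.23, adjusted p = 0.206). At an unadjusted p under 0.05 there were 3 higher and 1 lower member of the 34, beside 11.2% and 4.13% of all genes. The median over the members was 0.51 on the log2 scale against -0.02 over all genes, and 29 of the 34 were above 0, beside 48.4% of all genes. Cd3e (0.28 ± 0.97), Cd8a (0.31 ± 0.97), Cd4 (0.63 ± 0.91) and Foxp3 (0.25 ± 0.85) differed by less than their standard errors. DESeq2 called 2 members, Ncr1 and Klrb1c, beside 1281 of all 17717 genes. Single tumours carried part of these values: without Ecad female 7 the fold change of Ncr1 was 4.76 (adjusted p = 0.0719), and without Ecad female 2 that of Klrb1c was -1.28 (adjusted p = 0.482). The median over members was 1.46 without Ecad female 7 and 0.30 without ΔEcad female 2.

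Markers of skin tissue moved with this comparison, although edgeR called none of the keratinocyte, mast cell or adipocyte markers. The 6 keratinocyte markers had a median log2 fold change of 5.57, the 4 mast cell markers of 4.19 and the 4 adipocyte markers of 3.96 in the same fit, and the summed keratinocyte level ranged from 1.67 to 42342 TPM in ΔEcad females and from 0.20 to 1783 TPM in Ecad females. With keratinocyte and melanocytic scores as covariates, the median of the members was 0.33 and none was called. Beyond that fit, the part of skin tissue in the values of the members was not tested. The 3 B cell genes that passed the filter had a median of -2.37, and the 3 lymph node genes that passed it 1.89.

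In males, the same contrast gave a median over members of 0.36 against 0.11 over all genes, with 28 of 34 above 0, beside 59.1% of all genes. None was called by edgeR, nor was any other gene (0.0% in either direction). At an unadjusted p under 0.05 there was 1 member, Eomes (1.77 ± 0.79, adjusted p = 0.459 in edgeR), beside 7.19% of all genes higher and 3.05% lower. Ncr1 (1.39 ± 0.87, adjusted p = 0.570 in edgeR) and Klrb1c (1.08 ± 0.81, adjusted p = 0.638) came next, both higher in ΔEcad males. Cd3e (-0.04 ± 0.96), Cd8a (-0.11 ± 0.97), Foxp3 (-0.04 ± 0.84) and Prf1 (-0.17 ± 0.84) differed by less than their standard errors. Single tumours moved each of them: Cd3e was -0.91 without ΔEcad male 4, Foxp3 -0.64 without ΔEcad male 7, and Cd8a 0.72 and Prf1 0.43 without Ecad male 4. Gzmb was lower by 0.97 ± 1.08, a value that turned to 0.54 without Ecad male 4, where the median over members was 0.86. DESeq2 called none. Without the library labelled ΔEcad male 2, the median over members was 0.51 and none was called. In the same fit the median was -2.68 for skeletal muscle markers, -1.69 for adipocyte, -1.51 for lymph node, -1.43 for keratinocyte and 0.69 for macrophage markers. Their part in the values of the members was not tested beyond the keratinocyte and melanocytic covariates, with which the median over members was 0.25.

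The second question was whether the sexes differed within a genotype. Among Ecad tumours 53.9% of all genes were higher in females. Of the 34 members 31 were lower, and the median over the members was -1.05 against 0.05 over all genes. None was called by edgeR, beside 0.0113% of all genes higher and 0.0395% lower. At an unadjusted p under 0.05 there were 9 lower and 1 higher member of 34, beside 10.3% and 5.71% of all genes. The leading members were the granzymes Gzmb (-4.86 ± 1.27, adjusted p = 0.0869 in edgeR) and Gzma (-4.09 ± 1.29, adjusted p = 0.118), followed by Klrk1, the activating NK receptor NKG2D (-2.52 ± 0.85, adjusted p = 0.139). Klrb1c was the member that was higher in females (2.42 ± 0.84, adjusted p = 0.148 in edgeR). DESeq2 called 5 members, Klrb1c higher and Gzma, Gzmb, Klrk1 and Prf1 lower in females, beside 1023 of all 17717 genes. Ecad male 4 carried part of these differences. Without it the log2 fold change was -3.31 for Gzmb (adjusted p = 0.161 in edgeR) and -2.40 for Gzma (adjusted p = 0.280). The median over members was then -0.47. Without Ecad female 7, the highest Ecad female, that median was -2.04. Keratinocyte (-5.21), mast cell (-4.73), adipocyte (-3.26) and lymph node markers (-2.59) were lower in Ecad females in the same fit, by their medians. B cell markers were higher (2.77). None of these markers was called by edgeR. With keratinocyte and melanocytic scores as covariates the median over members was -0.97. In that fit 4 members, in place of 10, had an unadjusted p under 0.05. The smallest adjusted p of a member was then 0.604 in edgeR. The part of the other tissues was not tested.

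Among ΔEcad tumours 45.1% of all genes were higher in females. All 34 members tested were lower, with a median of -0.93 against -0.06 over all genes. None was called by edgeR, beside 0.00564% of all genes higher and 0.0339% lower, nor by DESeq2. At an unadjusted p under 0.05 there was 1 lower member, beside 5.49% of all genes lower and 3.32% higher. That member was Icos (-2.16 ± 1.05, adjusted p = 0.564 in edgeR), whose value without ΔEcad male 4 was -0.67. Gzmk, a granzyme of memory T cells (-1.82 ± 0.94, adjusted p = 0.575), and Eomes (-1.41 ± 0.78, adjusted p = 0.609) followed. Without ΔEcad male 4 the difference of Cd3e, -0.87 ± 0.97 with all tumours, was -0.0037. The median over members was -1.08 without the library labelled ΔEcad male 2 and -0.76 without ΔEcad female 3. The 6 macrophage markers were all lower in ΔEcad females in the same fit (median -0.95). The medians of skeletal muscle (3.09), adipocyte (2.42), keratinocyte (1.80) and lymph node markers (0.45) were above 0. None of these markers was called by edgeR. With keratinocyte and melanocytic scores as covariates the median over members was -0.98, and the part of the other tissues was not tested. This comparison and the genotype comparison in females share the ΔEcad females.

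**Figure D3:**
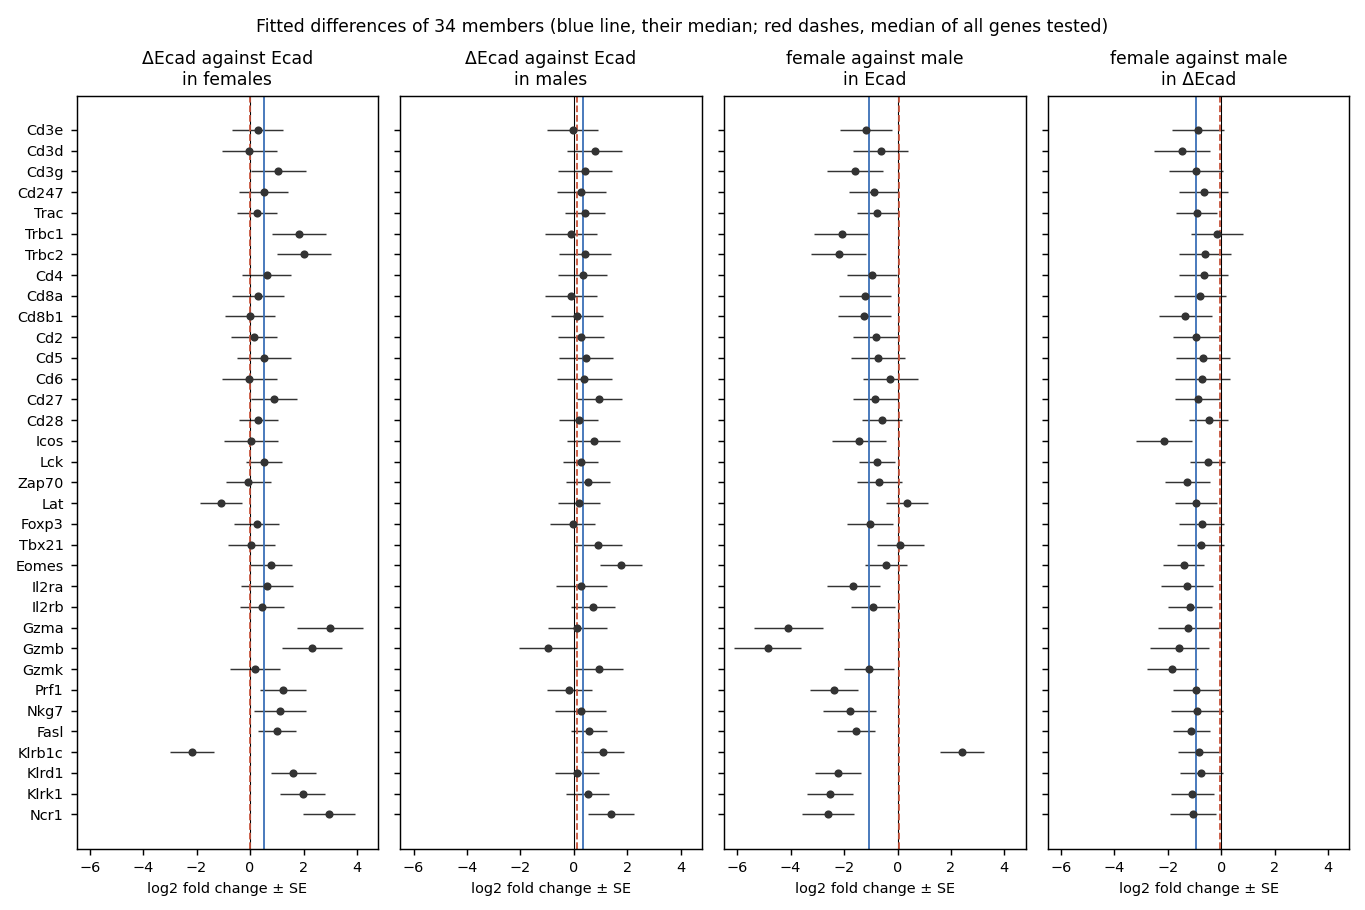
Fitted log2 fold change ± SE of the 34 members tested in the 4 comparisons (n = 8 tumours per group), with the median over the members as a blue line and that over all 17717 genes as red dashes. All members lie below 0 in the comparison of the sexes in ΔEcad tumours and 31 of 34 in that in Ecad tumours, with Gzmb and Gzma lowest and Klrb1c highest in the latter.

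The interaction of genotype and sex asked whether the genotype difference was the same in both sexes. No member was called by edgeR, nor was any other gene (0.0%), and at an unadjusted p under 0.05 there were 2 members, beside 10.7% of genes above and 6.94% below 0. These were Klrb1c (-3.25 ± 1.15, adjusted p = 0.122) and Gzmb (3.29 ± 1.57, adjusted p = 0.266), followed by Gzma (2.86 ± 1.63, adjusted p = 0.365), all in edgeR. Of the members, DESeq2 called Klrb1c alone, beside 1225 of all 17717 genes. Without ΔEcad female 5 edgeR called Klrb1c too (-4.001, adjusted p = 0.0499), and without Ecad female 2 its value was -2.36 (adjusted p = 0.256). The value of Gzmb was 1.73 without Ecad male 4.

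Most members varied together with Cd3e. Members above or below 0 in a comparison are thus not independent of each other. Across the 32 tumours, 32 of the 35 other members had a Pearson r with Cd3e over 0.6 on log2(TPM + 0.1), beside 5.91% of all genes tested, and the median r was 0.84 against 0.13 over all genes. By Pearson r the CD3 and zeta chains were closest: Cd3g (r = 0.951, rho = 0.943), Cd247 (r = 0.951, rho = 0.942) and Cd3d (r = 0.915, rho = 0.896). By rho, Trbc1 (0.921) and Lat (0.915) came before Cd3d. Their permutation p was 1e-05 for r and for rho, the smallest that 100000 permutations can give. The cytotoxic effectors spread from Gzmb (r = 0.659, rho = 0.545), Gzma (r = 0.676, rho = 0.682) and Prf1 (r = 0.763, rho = 0.709) to Fasl (r = 0.838, rho = 0.849) and Nkg7 (r = 0.882, rho = 0.883). Of the NK cell receptors, Klrk1 (r = 0.849), Klrd1 (r = 0.845) and Ncr1 (r = 0.738) varied with Cd3e, whereas Klrb1c did not (r = 0.193, permutation p = 0.293; rho = 0.106, p = 0.565). Adjusted over all 17717 genes less Cd3e itself, 32 of the 33 members tested passed a Benjamini-Hochberg adjusted p of 0.05 in the permutation test, beside 13.7% of all genes, and Klrb1c did not (adjusted p = 0.520).

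The count was similar without the extreme tumours and within groups. Without ΔEcad female 4 and ΔEcad male 4, which lay farthest from the median of Cd3e, 32 members were again over 0.6, and with values centred on the mean of each group 33 were. Within single groups of 8, r was above 0 in all 4 for 34 of the 35 members, and for Klrb1c it ran from -0.43 to 0.61. Cd3e itself was weakly related to sequencing depth (r = -0.412, permutation p = 0.0188; rho = -0.286, p = 0.114), and r was -0.25 without the 2 tumours farthest from the median depth. Ifng (r = 0.647) and Sh2d1a (r = 0.541), which did not pass the filter on low counts, are described without a test.

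**Figure D4:**
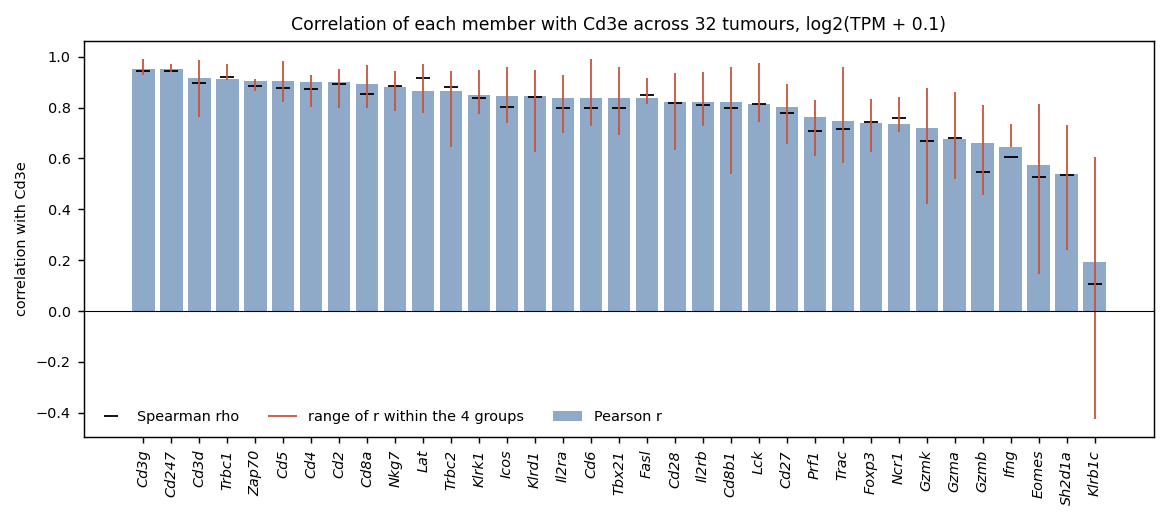
Correlation of each of the other 35 members with Cd3e across 32 tumours on log2(TPM + 0.1): bars give Pearson r, black marks Spearman rho and red lines the range of r within the 4 groups of 8. Bars fall from 0.951 for Cd3g to 0.193 for Klrb1c, the only member whose range reaches below 0.

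Outside the members and the related genes examined, the genes most like Cd3e over the 32 tumours by Spearman rho were Rasgrp1 (0.938), which activates Ras below the T cell receptor, Ptpn22 (0.931), a phosphatase of the same pathway, and Slamf7 (0.925), a receptor of NK and other leukocytes. Rasal3 (0.920), H2-Q6 (0.918), Ctss (0.912), Slamf8 (0.904), H2-T24 (0.900), P2ry14 (0.896) and H2-M2 (0.896) completed the first 10. H2-Q6, H2-T24 and H2-M2 belong to the MHC class I region and Ctss is a protease of antigen-presenting cells. MHC class I genes are alike in sequence, so that reads may be shared among them.

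Of 18 genes of other cells, 11 varied with Cd3e at an adjusted p under 0.05 by the permutation test (adjusted over the 18). H2-K1, an MHC class I heavy chain, was closest (r = 0.822, rho = 0.858), followed by the macrophage genes Csf1r (r = 0.771, rho = 0.768) and Adgre1 (r = 0.750, rho = 0.737) and the dendritic cell gene Flt3 (r = 0.726, rho = 0.716). The chemokine Cxcl9 (r = 0.674, rho = 0.672) varied with it as well, and so did Ccl21a (r = 0.611, rho = 0.607), of lymphatic and lymph node stroma. Within single groups r for Ccl21a ran from 0.17 to 0.91. The 5 lymph node markers, Ccl21a among them, summed to 1123 TPM in ΔEcad male 8 and 821 TPM in Ecad male 4. They summed to 81.2 TPM in ΔEcad male 4 and 33.4 TPM in ΔEcad male 7. The part of lymph node tissue in the values of the members was not tested. Cdh1 did not vary with Cd3e (r = 0.302, rho = 0.329, adjusted p = 0.136 by the permutation test), nor did Grpr (r = -0.126, rho = 0.006). The melanocytic genes Dct (r = -0.144, rho = -0.197) and Pmel (r = -0.207, rho = -0.281) and the proliferation marker Mki67 (r = -0.105, rho = -0.085) did not either. Within single groups of 8, r went both ways for Grpr (-0.66 to 0.82), Cdh1 (-0.52 to 0.78), Pmel (-0.76 to 0.27) and Mki67 (-0.47 to 0.57). For Dct it was below 0 in every group (-0.66 to -0.04). The B cell gene Cd79a (r = 0.396, rho = 0.579) and the keratinocyte gene Krt5 (r = 0.391, rho = 0.503) passed narrowly and did not with a pseudocount of 1 TPM. The endothelial gene Pecam1 (r = 0.443, rho = 0.372) passed for r but not for rho (adjusted p = 0.0117 and 0.0596 by the permutation test). Within single groups r ran from -0.12 to 0.85 for Cd79a, from -0.35 to 0.78 for Krt5 and from -0.07 to 0.60 for Pecam1.

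Ratios of single members asked whether the make-up of the lymphocyte RNA, apart from its amount, differed between groups. Cd8a lay below Cd4 in every group, with mean log2 ratios ± SD of -2.27 ± 1.75 (Ecad males), -1.82 ± 0.78 (Ecad females), -2.79 ± 1.01 (ΔEcad males) and -2.15 ± 1.20 (ΔEcad females), n = 8 each. Over 5 ratios and 4 comparisons no difference passed the adjustment in the two-sided exact permutation test (all splits of 8 against 8, smallest adjusted p = 0.479). The smallest p-values were those of Gzmb over Cd3e in females, higher in ΔEcad by 1.26 (exact permutation p = 0.0591, 6 of 8 tumours above the Ecad median), and of Ncr1 over Cd3e, higher in ΔEcad by 1.11 in females (exact permutation p = 0.0718, 7 of 8 tumours) and by 1.05 in males (exact permutation p = 0.0654, 7 of 8 tumours). The difference farthest from 0 was that of Gzmb over Cd3e between Ecad females and males (-1.37, exact permutation p = 0.163). For Foxp3 over Cd4 it was -0.75, between ΔEcad and Ecad females (exact permutation p = 0.390). Where both genes of a ratio are near 0, as in ΔEcad female 3, the ratio is set by the pseudocount of 0.1 TPM. It also enters where 1 gene is at 0, as Ncr1 was in most Ecad females. Over the alternatives, the difference of Ncr1 over Cd3e between genotypes ran from 0.22 to 3.00 in females and from 0.61 to 1.33 in males.

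**Figure D5:**
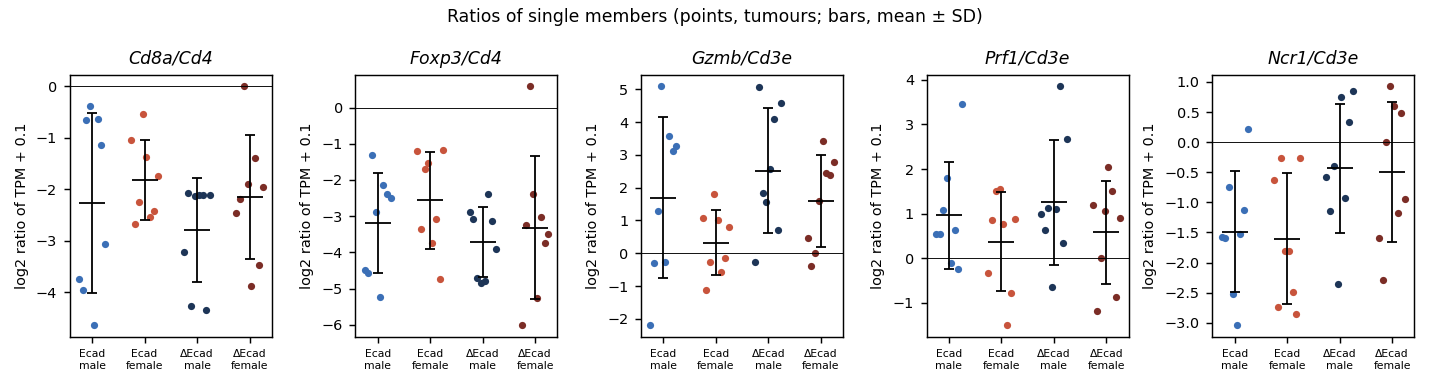
Log2 ratios of TPM + 0.1 for 5 pairs of members in the 4 groups, with tumours as points and mean ± SD as bars (n = 8 per group). Cd8a lies below Cd4 in 31 of 32 tumours and the groups overlap for every ratio. Ncr1 over Cd3e is centred higher in both ΔEcad groups, and Ncr1 itself was at 0 TPM in most Ecad females.

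Other genes of T and NK cell biology were read from the same fit. Of 97 genes tested in 8 related groups, edgeR called 2, both higher in ΔEcad than in Ecad females, beside 1.16% of all genes. None was called in the other 4 contrasts. The 2 were Gata3 (6.37 ± 1.505, adjusted p = 0.0394), a factor of type 2 T cells that is also expressed in epidermis and hair follicles, and Ccr4 (5.18 ± 1.21, adjusted p = 0.0394), a receptor that guides T cells to skin. Both lost the call with keratinocyte and melanocytic scores as covariates, where Gata3 was at 0.62 (adjusted p = 0.926 in edgeR) and Ccr4 at 1.96 (adjusted p = 0.749). Both also lost it with the replicate block (adjusted p = 0.126 each), in limma, and without any one of 10 of the 32 tumours, namely Ecad females 1, 2, 3, 4, 6, 7 and 8 and ΔEcad females 1, 2 and 7, with adjusted p up to 0.104 without ΔEcad female 2. With only the 2 groups compared, Gata3 was not called (adjusted p = 0.176) and Ccr4 fell under the filter. DESeq2 called both. The median of Gata3 was 0.125 TPM for Ecad females and 6.08 TPM for ΔEcad females. It was highest at 99.6 TPM in ΔEcad female 2, the tumour with the highest keratinocyte sum. Among other T cell genes Bcl11b came next (4.28 ± 1.15, adjusted p = 0.0521 in edgeR), also a gene of skin. Of the other NK cell genes, 14 of 19 tested were higher in ΔEcad females, led by Klra8, the receptor Ly49H (3.73 ± 1.00, adjusted p = 0.0521 in edgeR), and Klrb1b (2.45 ± 0.94, adjusted p = 0.169). All 8 gamma delta T cell genes tested were above 0 in that contrast, led by Tcrg-C4 (2.42 ± 1.06, adjusted p = 0.247 in edgeR), and none was called. Of all genes 48.4% were above 0 there.

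The remaining related groups showed no call beside these. Among checkpoint and late activation genes the smallest values were those of Tnfrsf18 (3.39 ± 0.95, adjusted p = 0.0562 in edgeR) and Tnfrsf9 (-1.70 ± 0.87, adjusted p = 0.359). Of the other cytotoxic genes Gzmc (3.36 ± 0.95, adjusted p = 0.0572) and Gzmf (3.57 ± 1.55, adjusted p = 0.240) led, of the recruitment genes Cx3cl1 (1.86 ± 0.63, adjusted p = 0.106) followed Ccr4, and of the cytokines Il18 (1.79 ± 0.59, adjusted p = 0.0961) and Il7 (1.65 ± 0.69, adjusted p = 0.220) led. Naive and memory genes were led by S1pr1 (1.08 ± 0.35, adjusted p = 0.0961), which endothelial cells also express. The keratinocyte difference in the same contrast is given above, and its part in these values was not tested.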

How the data were processed

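RNA was measured in 32 primary melanomas, 8 per genotype and sex. Per the labels and the study's methods, the authors made stranded poly(A) libraries and mapped paired reads with STAR to mm10 (GRCm38.p5, GENCODE 13). They deposited raw gene counts and TPM values (scaled for length, each tumour summing to 1000000). The study's methods name ComBat batch correction where applicable, without saying whether it was applied to these tumours. The strand setting used for counting was not given in the sources used here, and 14 of the 36 members overlap another gene of the GENCODE 21 annotation.

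Symbols were matched by Ensembl identifier. edgeR 4.0.16 (R 4.3.3; TMM, filterByExpr, robust quasi-likelihood, 1 coefficient per group) was run over all genes, calling genes with adjusted p under 0.05 whose log2 fold change exceeded 1 in size. 34 of 36 members were tested; Ifng and Sh2d1a fell under the filter. Ratios used two-sided exact permutation on log2 of TPM + 0.1, and correlations used 100000 permutations. For the members, correlations were adjusted over all genes tested, in place of the planned 35. Scripts were tested on simulated data. Alternatives were DESeq2 1.42.0, limma 3.58.1, other scalings, filters, pseudocounts and covariates, and leaving out each tumour.

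The members and lists were chosen with earlier results of these data known. Genes always described were Cd3e, Cd8a, Cd4, Foxp3, Gzmb, Prf1, Ncr1 and Ifng. Named besides were the called members of each comparison or else the 3 with the smallest p, the members of highest and lowest median, the 10 genes most like Cd3e, and the called or the 2 leading genes of each related list in females, of which 2 are not reported here. Other members and single tumours were named after their values were seen. No source used here says whether each tumour came from a separate animal, so p-values measure only the spread between these tumours. Tumour numbers are not said to pair the groups in any source used here. Deviations of same-numbered tumours from their group means had correlations from -0.48 to 0.30. Between ΔEcad and Ecad males, 3 of 8 tumours correlated most with the tumour of their own number. At most 2 did in the other pairs of groups.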

Additional observations from a re-analysis of the deposited data

Results flagged for a closer look

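Within each group of 8, the gap between an extreme tumour and its neighbour was compared with the range of the group on log2(TPM + 0.1), and 5 of 144 combinations of member and group exceeded Dixon's 95% critical value. Chance flags about 1 in 20 groups, so the number of flags is not above what chance gives. Ecad female 7 was high for Ifng (1.48 TPM, the other 7 Ecad females at 0.09 or below), Tbx21 (2.33 TPM, the others at 0.35 or below) and Ncr1 (0.38 TPM, the others at 0.08 or below). Cd3d was at 0.00 TPM in ΔEcad male 6, where the other ΔEcad males lay at 1.70 TPM or above. Il2rb was at 0.13 TPM in ΔEcad female 4, where the others lay at 2.35 TPM or above. No interaction of genotype and sex was called for a member by edgeR with all tumours.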

How the results depend on the processing

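No member was called under edgeR with RLE factors, no filter, no fold threshold, non-robust estimation, the covariates or only the compared groups, nor under limma. DESeq2 called 2 members in the genotype comparison in females, 5 in the comparison of the sexes in Ecad tumours and 1 in the interaction. Over all genes it called 1281, 1023 and 1225 in the same comparisons. Why it called more than edgeR was not tested. With each tumour left out in turn, the number of members called stayed 0 in the 4 group comparisons and ranged from 0 to 1 for the interaction; the ratios gave 0 throughout. A replicate block on the tumour number called 0 members in every comparison, and the block reduced the calls over all genes in females from 213 to 1. The median log2 fold change of the members kept its sign under every alternative in the 4 group comparisons (0.30 to 1.46 for genotype in females, 0.08 to 0.86 in males, -2.04 to -0.47 for sex in Ecad and -1.27 to -0.39 in ΔEcad tumours) and changed it under 2 of 41 for the interaction (-0.28 to 1.15). The number of members with r over 0.6 ranged from 29 to 33. Without ΔEcad male 2, 32 did, and 10 of the 18 genes of other cells passed in place of 11. Low counts limit Ifng, Sh2d1a and Ncr1 most, and a change that was not called here is not shown to be absent.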
